A study of Mus musculus with 9 samples.

Results

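Actin filaments and the proteins that build, bundle, anchor and pull on them are the contractile machinery of fibroblasts, and their mRNAs are among the usual RNA of these cells. Here 42 genes of the actin cytoskeleton and contractile apparatus were followed in extracellular vesicles (EVs), membrane particles that cells release with RNA inside, collected from mouse embryonic fibroblasts (MEFs), primary connective tissue cells. EV RNA of PBS-treated MEFs was measured on 5 arrays and EV RNA of control MEFs on 4. PBS is phosphate-buffered saline, and the labels leave unsaid if electric pulses, used in the study for transfection, were applied with it. The question is which RNAs of the EVs differed with the treatment, and no label ties the replicates to separate cultures, so that p-values measure the spread between these samples and may be technical.

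The 42 genes were taken from a list by gene name, out of 36437 genes and other named targets on the array, and each was read on its probe with the highest mean signal. All 42 had a probe, 41 under their own symbol and Myl12a, a myosin light chain, through the accession of a probe that the array design lists under an older clone name. The signal is given as log2 of the background-corrected brightness relative to the 75th percentile, on the same array, of those probes that stood well above background everywhere. A value of 0 is therefore brighter than most of these probes, a probe can be well detected at values below 0, and values of different genes are not set against each other because probes differ in brightness. A gene entered the test when its probe was well above background on at least 4 arrays, which held for 38 of the 42. EV RNA is a bulk sample, in which fewer vesicles of a kind and fewer copies per vesicle cannot be told apart.

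Actin itself polymerises from monomers that profilin, cofilin and thymosin handle, and the Arp2/3 complex starts branches on existing filaments. Crosslinkers such as α-actinin and filamin bundle filaments, tropomyosins coat them, and non-muscle myosin II slides them against each other. Vinculin, talin and zyxin tie the filaments to integrins, and ezrin, radixin and moesin tie them to the plasma membrane. In cultured cells, a large part of these genes is switched on by serum response factor (Srf) with its coactivators Mkl1 and Mkl2, which bind monomeric actin, and Srf binds a short DNA element called the CArG box.

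The arrays differed before any gene was compared. Between 12584 and 19233 probes per array were well above background, 16492 to 19233 on PBS-treated and 12584 to 15554 on control arrays. The 9 arrays lay on 2 slides. Slide 1 carried control replicates 1 and 2 with PBS-treated replicates 1 to 3, slide 2 the other 4 arrays, and control replicates 3 and 4 had the fewest detected probes. Of 12 fibroblast markers, 8 were well above background on all 9 arrays, Col1a1, Dcn and Fn1 among them, and Thy1 was on none. The summed relative signal of the fibroblast markers was 25.0 to 29.8 on PBS-treated and 16.4 to 24.0 on control arrays. That of the 7 leukocyte markers was 0.844 to 1.74 on PBS-treated and 2.14 to 3.2 on control arrays. For the 4 endothelial markers it was 0.0997 to 0.137 and 0.239 to 0.411. Such sums are carried by the brightest probes, here S100a4 and Sparc among the fibroblast and Itgam among the leukocyte markers. Of the 10 fibroblast markers tested, 3 were higher and 3 lower, against 31.6% and 20.7% of all genes tested, with a median of -0.38. Dcn, Lum and S100a4 differed by 2.03, 1.87 and 1.45 (log2, limma, adjusted p = 0.000473, 0.00454 and 0.024). Lum entered the test through the PBS-treated arrays alone. Col1a1, Fn1 and Pdgfra differed by -1.35, -1.17 and -1.95 (adjusted p = 0.000364, 0.000226 and 0.000301). The leukocyte markers Itgam and Cd3e and the endothelial marker Kdr were well above background on all 9 arrays, Csf1r on 8 and Pecam1 on 5, while Cd68, Adgre1, Cdh5 and Tek were on none. Csf1r, Itgam, Pecam1 and Kdr were lower in PBS-treated EVs (log2 differences -2.70, -1.30, -1.81 and -1.43, limma, adjusted p = 0.0245, 0.00248, 0.0476 and 0.00101), and the part of these differences in the results was not tested.

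CArG boxes, the element that Srf binds, were looked for in the members' promoters. RefSeq promoters on GRCm38.p6, each with 250 bases before the start and 50 after it, were found for 40 of the 42 members (not for Actg2 and Tagln). A CArG box, searched on both strands and with no other motif, was present in 5 of 47 promoters of members (10.6%) and in 535 of all 32851 promoters (1.63%). The 5 boxes are printed with 10 bases to each side, 5′ to 3′ on the gene's strand, and the capitals mark the box.
Actg1 (chr11:120348566-120348595, minus strand, box starting 90 bases before the start): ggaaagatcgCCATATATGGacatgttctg
Cnn2 (chr10:79988534-79988563, plus strand, 56 bases before): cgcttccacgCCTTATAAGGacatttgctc
Myl6 (chr10:128493040-128493069, minus strand, 50 bases before): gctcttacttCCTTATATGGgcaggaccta
Myl9 (chr2:156775293-156775322, plus strand, 161 bases before): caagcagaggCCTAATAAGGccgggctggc
Vcl (chr14:20929161-20929190, plus strand, 227 bases before): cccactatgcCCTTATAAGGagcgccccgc
Cnn2 and Vcl carry the same letters in the box. Of these 5 genes, Myl6 and Myl9 were higher in PBS-treated EVs, where 31.6% of all genes tested were higher. The other 3 did not pass the threshold, and the values are given at each gene below. Myl9 entered the test through the PBS-treated arrays alone and passed under 1 of 5 other scalings.

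Across the 38 members tested, 19 were higher in EVs of PBS-treated MEFs and 2 were lower (limma, Benjamini-Hochberg over 14278 genes, adjusted p under 0.05). Of all 14278 genes tested, 31.6% were higher and 20.7% lower, which is the background for these counts. The median log2 difference of the 38 members was 0.52 against -0.02 over all genes tested, and 30 of the 38 lay above the latter. The members that rose included the listed subunits of the Arp2/3 complex and the membrane linkers moesin and radixin. Also higher were the α-actinin gene Actn4, the tropomyosin genes Tpm3 and Tpm4 and the myosin light chain genes Myl6 and Myl12a. The other α-actinin gene, Actn1, and the light chain gene Myl9 were called higher, but entered the test through the PBS-treated arrays alone. Both turned below 0 under normexp without passing. The monomer-binding gene Tmsb4x fell, but not with the percentile over all probes or spike-in scaling, and the call of the myosin heavy chain gene Myh9 as lower held under none of the 5 other scalings. The smooth muscle forms of actin and calponin and the muscle filamin Flnc were near or below the detection limit.

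**Figure D1:**
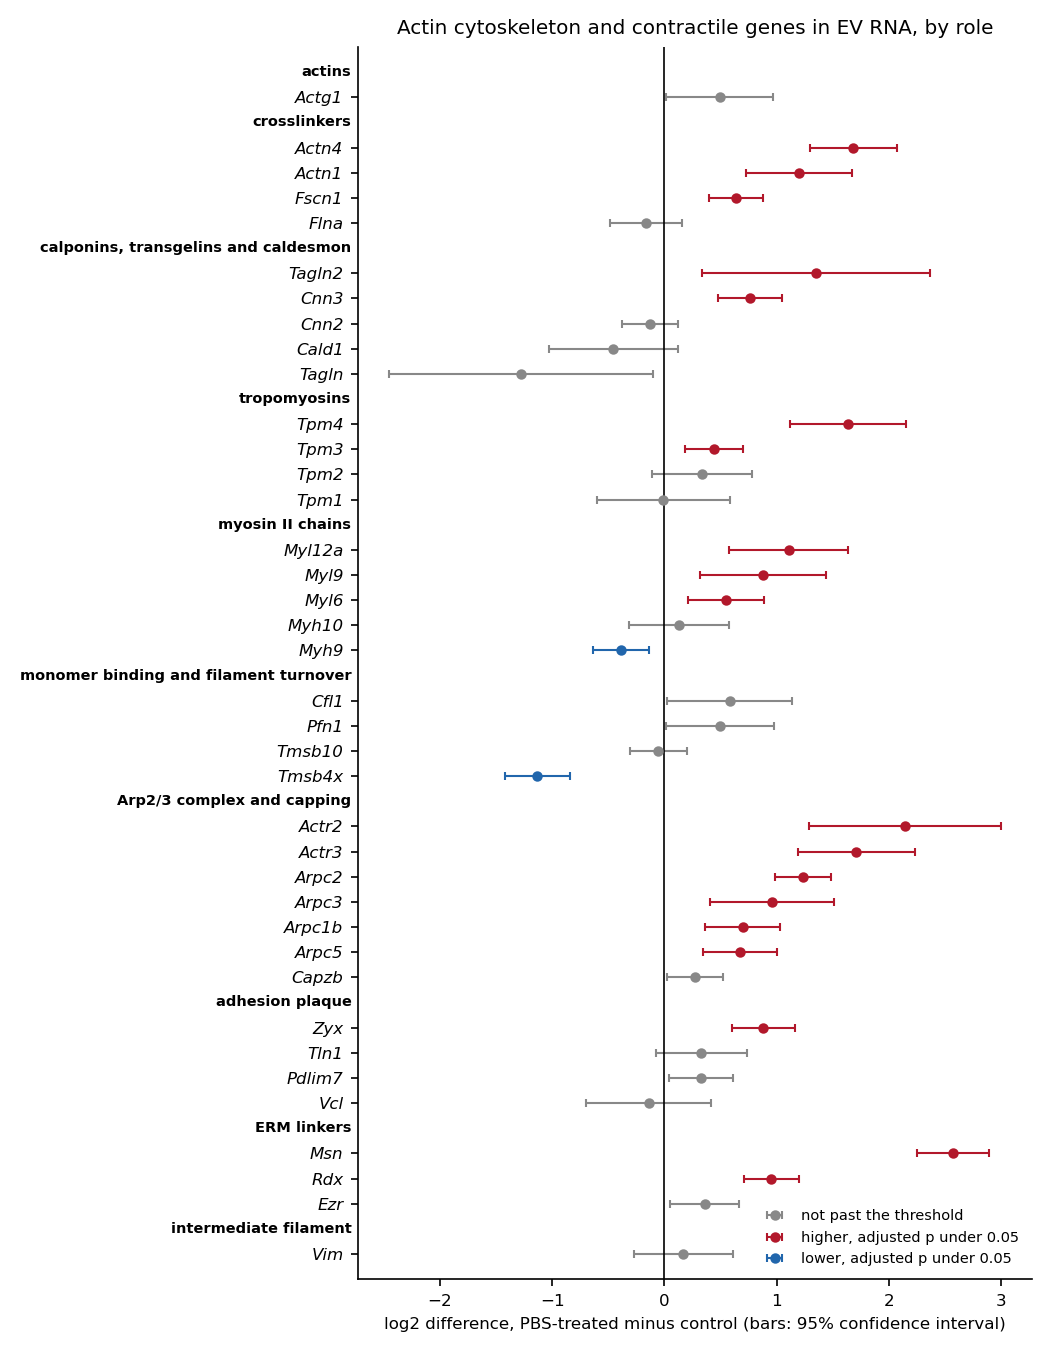
Log2 difference between PBS-treated and control EVs (x axis) for the 38 members tested (y axis, grouped by role), with points for the fitted difference and bars for its 95% confidence interval. The 6 listed Arp2/3 subunits lie between 0.67 and 2.14, Msn is the highest at 2.57, and the only members past the threshold on the lower side are Tmsb4x and Myh9.

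The groups' own values gave the same counts. On 19 members every PBS-treated array lay above every control array, and on 2 every one lay below, where 29.4% and 17.6% of all genes tested did so. Tagln2 passed the test although its groups overlapped, and Pdlim7 was separated without passing it. Actn1 and Myl9 entered the test through the PBS-treated arrays alone, the group where they are high, and without them 17 of 36 members were higher and 2 lower. Where the test was limited to the 7174 genes well above background on all 9 arrays, it held 31 members. Of these, 19 were higher and 2 lower, against 32.9% and 29.6% of those genes. This set leaves out Actn1, Myl9 and Actr2, so its 19 are not the same members as the 19 above.

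The number of members that passed differed between scalings, and so did the level of all genes. The median over all genes tested was -0.02 here, 0.39 with the percentile taken over all probes, 1.27 with spike-in RNAs, 0.23 after quantile normalization, -0.51 with normexp background correction and 0.0991 in the deposited value table. The members' median exceeded that of all genes by 0.54, 0.54, 0.54, 0.46, 0.88 and 0.43, in the same order. The first 3 are equal by construction, since these scalings move all genes of an array alike. The members higher numbered 12, 36, 19, 14 and 15 under the 5 other scalings, against 24.7%, 62.6%, 29.4%, 13.2% and 26.2% of all genes. Those lower numbered 0, 0, 2, 4 and 1, against 9.47%, 4.97%, 14.8%, 32.6% and 13.2%. With the percentile over all probes, Fscn1, Cnn3, Tpm3, Myl6, Myl9, Arpc1b, Arpc3 and Arpc5 no longer passed, at differences of 0.84 to 1.37, and Cfl1 did. Without control replicates 3 and 4, the arrays with the fewest detected probes, 16 members were higher and 4 lower, against 29.2% and 20.8% of all genes. The members' median then exceeded that of all genes by 0.27.

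**Figure D2:**
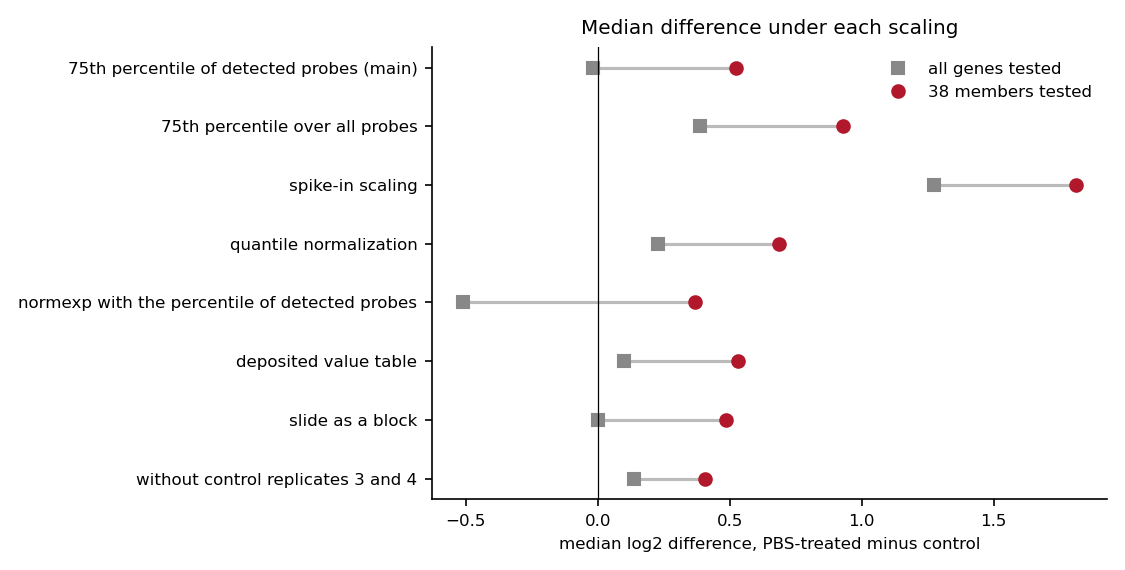
Median log2 difference between PBS-treated and control EVs (x axis) over all genes tested (grey squares) and over the 38 members tested (red circles) under 8 ways of processing (y axis). The members' median lies to the right of that of all genes by 0.27 without control replicates 3 and 4 and by 0.88 with normexp, and the excess is the same by construction in the upper 3 rows.

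Both slides held both groups, so each difference could be read within a slide. The members' median difference was 0.45 on slide 1 and 0.63 on slide 2, and 33 of 38 members had the same sign on both. With slide as a block 25 members were higher and 3 lower, against 35.4% and 34.3% of all genes. The difference itself differed between slides (interaction, adjusted p under 0.05) for 3 members, Tpm1, Vim and Actr3, and for 9.42% of all genes tested.

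**Figure D3:**
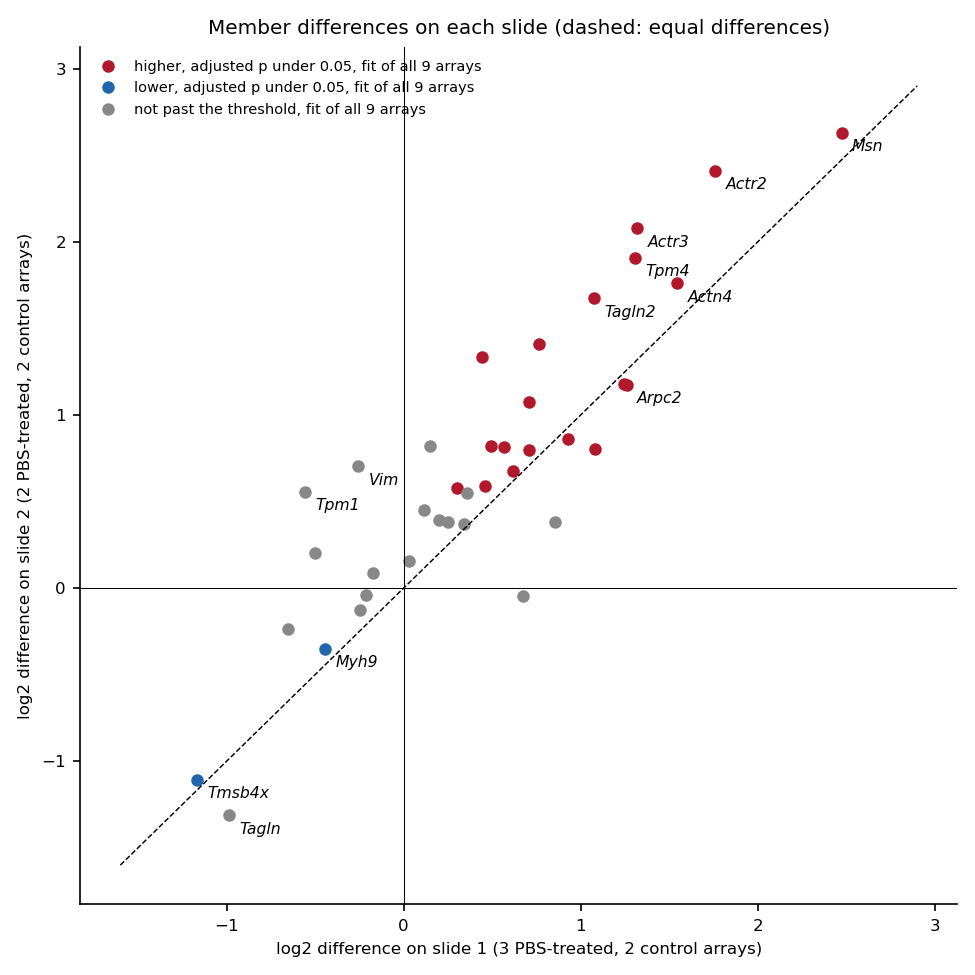
Log2 difference between PBS-treated and control EVs on slide 1 (x axis, 3 against 2 arrays) and on slide 2 (y axis, 2 against 2 arrays) for the 38 members tested, one point per gene, coloured by the fit of all 9 arrays, with a dashed line of equal differences. Msn lies at 2.47 and 2.63 and Tmsb4x at -1.17 and -1.11, while Tpm1 and Vim lie below 0 on slide 1 and above 0 on slide 2.

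The Arp2/3 complex, which nucleates branched actin, held the most members that moved one way. All 6 of its listed subunits were higher, against 31.6% of all genes tested. Of its subunits outside the list, Arpc1a fell by 2.69 (log2, limma, adjusted p = 1.44e-06), and Arpc4 and Arpc5l did not pass. Actr2, the actin-related protein 2 subunit, read -1.70, -1.69, -1.58, -2.16 and -2.36 on PBS-treated replicates 1 to 5 and -3.32, -3.52, -5.15 and -4.19 on control replicates 1 to 4. The groups did not overlap, and control replicate 3 was the lowest. Its log2 difference was 2.14 ± 0.38 (SE, adjusted p = 0.00148), with the probe well above background on 2 of 4 control arrays. Actr3, the actin-related protein 3 subunit, read 0.38, 0.32, 0.46, 0.26 and 0.25 in PBS-treated and -0.89, -0.97, -1.81 and -1.83 in control EVs.

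All 5 PBS-treated arrays of Actr3 lay within a narrow range above 0, and the control arrays fell into a pair for each slide. Actr3 rose 3.28-fold (log2 difference 1.71 ± 0.23, SE, adjusted p = 0.000326), by 1.32 on slide 1 and 2.08 on slide 2 (interaction adjusted p = 0.0264). The scaffold subunit Arpc2 rose by 1.24 ± 0.11 (log2, SE, adjusted p = 3.53e-05), from 1.04 ± 0.06 (SD, n = 4) to 2.27 ± 0.12 (SD, n = 5). The smaller subunits Arpc3, Arpc1b and Arpc5 rose by 0.96, 0.70 and 0.67 (adjusted p = 0.00931, 0.0038 and 0.00448). All 3 tested probes of Arpc3 and both probes of Arpc5 passed in the same direction.

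Capzb, the β subunit of the protein that caps filament ends, differed by 0.27 (95% confidence interval 0.02 to 0.52, adjusted p = 0.0692) and passed without control replicate 2 (adjusted p = 0.0358). Arpc1b did not pass under 3 of the 5 other scalings (with the percentile over all probes, normexp and the value table), where its difference was at least 0.52.

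The ERM proteins ezrin, radixin and moesin link actin to the plasma membrane, and Msn, for moesin, showed the largest difference of any member. Msn read 1.86, 1.79, 1.71, 1.62 and 1.50 in PBS-treated EVs and -0.64, -0.74, -1.04 and -1.10 in control EVs. Every PBS-treated array lay far above every control array, with a gap wider than the range of either group. The 5.95-fold rise (log2 difference 2.57 ± 0.14, SE, adjusted p = 3.77e-06) passed under each of the 26 alternatives, between 2.38 and 3.86. Rdx, for radixin, rose by 0.95 ± 0.11 (adjusted p = 0.000142), and its second probe by 1.20.

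Ezr, for ezrin, differed by 0.36 (95% confidence interval 0.05 to 0.67, adjusted p = 0.0533). It passed with slide as a block (adjusted p = 0.0431) and without PBS-treated replicate 4 or control replicate 3 (adjusted p = 0.0465 and 0.0318).

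**Figure D4:**
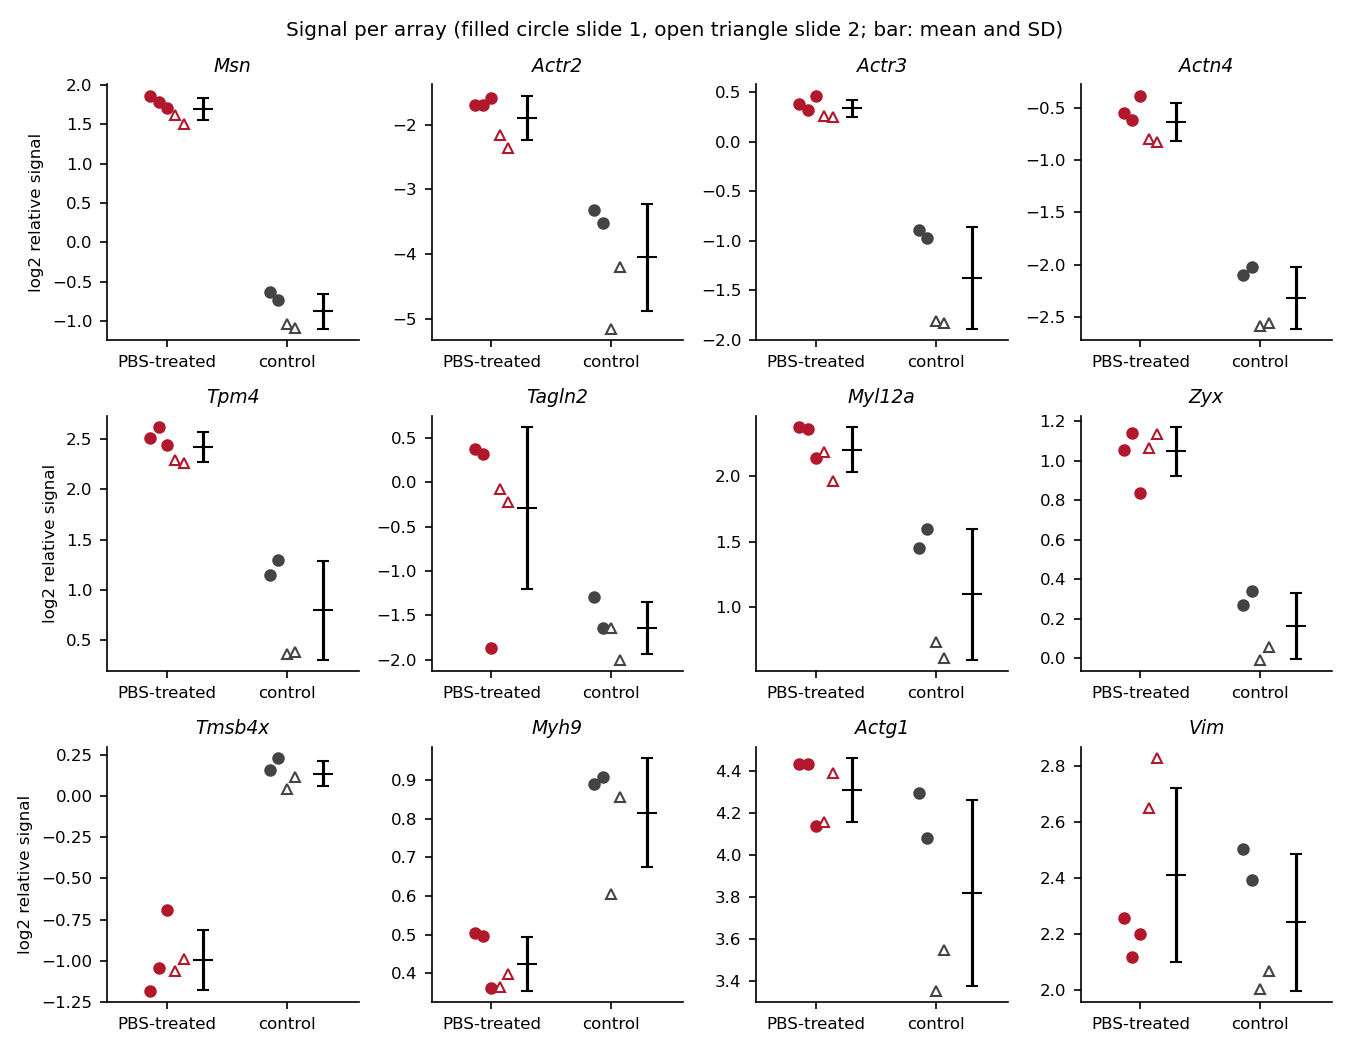
Relative signal in log2 units (y axis, a scale of its own in each panel) on each array of the PBS-treated and control groups (x axis) for 12 members, where filled circles mark slide 1 and open triangles slide 2, and the mean and SD stand to the right of the points. The groups are separated for Msn, Actr2, Actr3, Actn4, Tpm4, Myl12a and Zyx with PBS-treated above, and for Tmsb4x and Myh9 with PBS-treated below, while Tagln2, Actg1 and Vim overlap.

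Among the crosslinkers, which bundle filaments or join them into networks, 3 of the 4 tested were higher, against 31.6% of all genes. Actn4, a non-muscle α-actinin, read -0.55, -0.61, -0.39, -0.80 and -0.82 in PBS-treated and -2.10, -2.02, -2.58 and -2.56 in control EVs. The groups were apart by more than 1 log2 unit, and both were lower on slide 2. Actn4 rose 3.21-fold (log2 difference 1.68 ± 0.17, SE, adjusted p = 7.21e-05). Actn1, the other non-muscle α-actinin, was undetected on all 4 control arrays and at least 1.71-fold higher. This bound takes the PBS-treated mean and, on each control array, the larger of the probe's signal and the lowest detectable signal. Under normexp, however, the difference of Actn1 was -0.47. Its adjusted p was 0.00136, with entry to the test resting on the PBS-treated arrays, and it did not pass under normexp or on slide 2 alone.

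Fscn1, for fascin, which packs filaments into the bundles of filopodia, rose by 0.64 ± 0.11 (adjusted p = 0.00109). Flna, the widely expressed filamin, differed by -0.17 (95% confidence interval -0.49 to 0.16, adjusted p = 0.346). Flnc, the muscle filamin, was well above background on no array and was not tested.

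The tropomyosins are coiled coils that run along the filament and govern access of other proteins. They split into 2 that rose and 2 that did not pass, where 31.6% of all genes tested rose. Tpm4 read 2.51, 2.62, 2.44, 2.29 and 2.26 in PBS-treated and 1.14, 1.29, 0.36 and 0.38 in control EVs. No value overlapped, and the control arrays of slide 2 were lower than those of slide 1. Tpm4 rose 3.1-fold (log2 difference 1.63 ± 0.23, SE, adjusted p = 0.000413). Tpm3 rose by 0.44 ± 0.11 (adjusted p = 0.0109), but with the mean of both its probes, 1 of them well above background on a single array, the difference was -0.84 and did not pass.

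Tpm2 differed by 0.34 (95% confidence interval -0.11 to 0.78, adjusted p = 0.178). The chosen probe of Tpm1 differed by -0.01 (95% confidence interval -0.60 to 0.59, adjusted p = 0.98), at -0.56 on slide 1 and 0.56 on slide 2 (interaction adjusted p = 0.0128). Tpm1 has 5 probes to several transcripts, of which 1 fell by 0.88 (adjusted p = 0.00785) and 1 rose by 0.53 (adjusted p = 0.0415). Tpm1 was the only member of the 13 with over 1 tested probe whose probes passed in opposite directions.

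Non-muscle myosin II is made of heavy chains, here Myh9 and Myh10, with the essential light chain Myl6 and regulatory light chains such as Myl9 and Myl12a, and its light and heavy chains did not move together. Myl12a read 2.38, 2.36, 2.14, 2.19 and 1.96 in PBS-treated and 1.45, 1.60, 0.73 and 0.61 in control EVs. The groups were separate, and in both the lowest array was on slide 2. Myl12a rose 2.16-fold (log2 difference 1.11 ± 0.23, SE, adjusted p = 0.00385). Myl6 rose by 0.55 ± 0.15 (adjusted p = 0.0132), and its second probe rose by 0.45.

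Myl9 was well above background on all 5 PBS-treated and none of the control arrays, at least 1.08-fold higher, and under normexp its difference was -0.61. Its adjusted p was 0.0154, again with entry to the test resting on the PBS-treated arrays, and among the 5 other scalings it passed only with spike-in RNAs. It was also lost with no filter on dim probes (adjusted p = 0.0509) and on slide 1 alone (adjusted p = 0.175). Myh9, the heavy chain of non-muscle myosin IIA, read 0.50, 0.50, 0.36, 0.36 and 0.40 in PBS-treated and 0.89, 0.91, 0.61 and 0.86 in control EVs. All 5 PBS-treated arrays lay below all 4 control arrays, control replicate 3 being nearest to them. Myh9 fell by 0.39 ± 0.11 (log2, SE, adjusted p = 0.0158), while it differed by 0.01 with the percentile over all probes and by 0.90 with spike-in scaling, where all genes shifted upward. Under quantile normalization, normexp and the value table it was -0.34, -0.20 and -0.12 (adjusted p = 0.121, 0.397 and 0.655), so that the lower call held under none of the 5 other scalings, nor with no filter on dim probes (adjusted p = 0.111). Myh10 differed by 0.13 (95% confidence interval -0.31 to 0.57, adjusted p = 0.588), and passed as lower with normexp (-0.54, adjusted p = 0.0317) and as higher with spike-in scaling (1.42).

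Calponins, transgelins and caldesmon bind along filaments. Of the 5 tested, 2 were higher and none was lower, against 31.6% and 20.7% of all genes tested. Tagln2, the widely expressed transgelin, read 0.37, 0.32, -1.86, -0.08 and -0.22 in PBS-treated and -1.29, -1.64, -1.65 and -2.0 in control EVs. PBS-treated replicate 3 lay among the control arrays, and the other 4 lay above them. The log2 difference was 1.35 ± 0.45 (SE, adjusted p = 0.0317), and the second probe rose by 1.02 (adjusted p = 0.0162).

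The call on Tagln2 was lost without PBS-treated replicate 1, 2, 4 or 5 or control replicate 2, 3 or 4, at 1.18, 1.20, 1.30, 1.33, 1.35, 1.35 and 1.23. Its adjusted p was then between 0.0585 and 0.0814. The call was also lost with normexp (0.97, adjusted p = 0.168) and in the value table (1.13, adjusted p = 0.0934). Nor did Tagln2 pass with no filter on dim probes (adjusted p = 0.0572) or on slide 1 alone (1.08, adjusted p = 0.273). In all, 14 of the 26 alternatives lost this call. Cnn3, the acidic calponin, rose by 0.77 ± 0.13 (adjusted p = 0.00101), with its second probe at 1.08. Cnn2 differed by -0.13 (95% confidence interval -0.38 to 0.12, adjusted p = 0.344).

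Tagln, the smooth muscle transgelin, differed by -1.28 (95% confidence interval -2.46 to -0.11, adjusted p = 0.0657), the lowest value of any member. It differed by -0.99 on slide 1 and -1.31 on slide 2. With slide as a block its difference was -1.14 and passed (adjusted p = 0.000108), as it did without PBS-treated replicate 5 or control replicate 2 (-1.48 and -1.62, adjusted p = 0.0488 and 0.0293), but with spike-in scaling it was 0.01. Cald1, for caldesmon, differed by -0.46 (95% confidence interval -1.03 to 0.12, adjusted p = 0.163), and its second probe fell by 0.41 (adjusted p = 0.00886). Cnn1, the smooth muscle calponin, was well above background on 2 PBS-treated arrays and no control array and was not tested.

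Of the 3 actins, only Actg1, the cytoplasmic γ-actin, was tested. Actg1 read 4.44, 4.43, 4.14, 4.16 and 4.39 in PBS-treated and 4.29, 4.08, 3.35 and 3.55 in control EVs. The groups overlapped on slide 1 and were apart on slide 2. The chosen probe differed by 0.49 (95% confidence interval 0.01 to 0.97, adjusted p = 0.0789) and passed with slide as a block (adjusted p = 0.0387) and without control replicate 1 (0.65, adjusted p = 0.0248).

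Of the 5 probes of Actg1, the 3 that passed rose by 1.21, 1.19 and 1.18 (adjusted p = 0.00895, 0.000216 and 0.000759), and the fifth differed by 0.52. The design maps only part of the chosen probe to mm9, to chr11:120206967-120206984. Actin sequences are closely related, and the share of signal from other actins was not tested. Acta2, the smooth muscle α-actin that marks contractile fibroblasts, was well above background on 1 PBS-treated and 2 control arrays, and Actg2, the smooth muscle γ-actin, on none, so neither was tested. Of the 6 smooth muscle markers, Myh11, Des, Lmod1, Synpo2 and Myocd were also detected on no array, and Smtn was well above background on all 9.

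Proteins that bind actin monomers and turn filaments over gave 1 call in 4, and it was downward, where 20.7% of all genes were lower. Tmsb4x, for thymosin β4, which holds monomers in reserve, read -1.18, -1.04, -0.69, -1.06 and -0.99 in PBS-treated and 0.16, 0.23, 0.04 and 0.12 in control EVs. The control arrays lay close together and above every PBS-treated array. Tmsb4x fell by 1.13 ± 0.13 (log2, SE, adjusted p = 0.000124), on slide 1 by 1.17 and on slide 2 by 1.11, while it did not pass with the percentile over all probes (-0.73) or with spike-in scaling, where its difference was 0.16 and the median of all genes 1.27. Tmsb10, for thymosin β10, differed by -0.05 (95% confidence interval -0.31 to 0.20, adjusted p = 0.699).

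Cfl1, for cofilin, which severs filaments, differed by 0.58 (95% confidence interval 0.02 to 1.14, adjusted p = 0.0762) on its chosen probe, and its other 2 probes rose by 1.03 and 1.18 (adjusted p = 0.00153 and 0.00117). Pfn1, for profilin, which feeds monomers to growing ends, differed by 0.50 (95% confidence interval 0.02 to 0.98, adjusted p = 0.0772). With slide as a block both passed (adjusted p = 0.00513 and 0.00533), and Cfl1 also passed without control replicate 4 (0.76, adjusted p = 0.0279).

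At the adhesion plaque, where filaments meet integrins, 1 of 4 members passed. It was higher, as were 31.6% of all genes tested. Zyx, for zyxin, read 1.06, 1.14, 0.84, 1.06 and 1.14 in PBS-treated and 0.27, 0.34, -0.01 and 0.06 in control EVs. The groups did not overlap, and PBS-treated replicate 3 was the lowest of its group. Zyx rose by 0.88 ± 0.12 (log2, SE, adjusted p = 0.000448), but did not pass with normexp or in the value table, where it was at least 0.60.

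Tln1, for talin, differed by 0.33 (95% confidence interval -0.08 to 0.74, adjusted p = 0.154) on its chosen probe and by -1.06 on its second (adjusted p = 0.11). Pdlim7, a scaffold of stress fibres, differed by 0.33 (0.04 to 0.61, adjusted p = 0.0546) and passed without control replicate 1 (adjusted p = 0.0498). Its other tested probe differed by -0.33 (adjusted p = 0.182), and the mean of all its probes by -0.11 (adjusted p = 0.53). The chosen probes of both passed with slide as a block (adjusted p = 0.0258 and 0.0292). Vcl, for vinculin, differed by -0.14 (-0.70 to 0.42, adjusted p = 0.642) with its probe well above background on 2 of 4 control arrays. It passed as lower with normexp (-0.85), the mean of all probes (-0.69) and on slide 1 alone (-0.50), and as higher with spike-in scaling (1.15).

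Vim, for vimentin, the intermediate filament protein of mesenchymal cells, was the member outside the actin system. It read 2.26, 2.12, 2.20, 2.65 and 2.83 in PBS-treated and 2.50, 2.39, 2.0 and 2.07 in control EVs. The order of the groups turned between slides, with control above PBS-treated on slide 1 and below on slide 2. The log2 difference was 0.17 (95% confidence interval -0.27 to 0.61, adjusted p = 0.48), at -0.26 on slide 1 and 0.71 on slide 2 (interaction adjusted p = 0.0185).

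A further 73 genes of the actin pathway were read the same way, 63 of them tested, and 32 were higher and 12 lower, with a median of 0.42. Of all genes tested, 31.6% were higher and 20.7% lower, the latter close to the share of lower genes here. The kinase gene Pak2 rose by 2.19 ± 0.19 and Ppp1cb, a catalytic subunit of the myosin phosphatase, by 2.12 ± 0.24 (adjusted p = 3.67e-05 and 0.000126). With the mean of both its probes, of which 1 was well above background on no array, Ppp1cb differed by 0.27 and did not pass (adjusted p = 0.284).

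**Figure D5:**
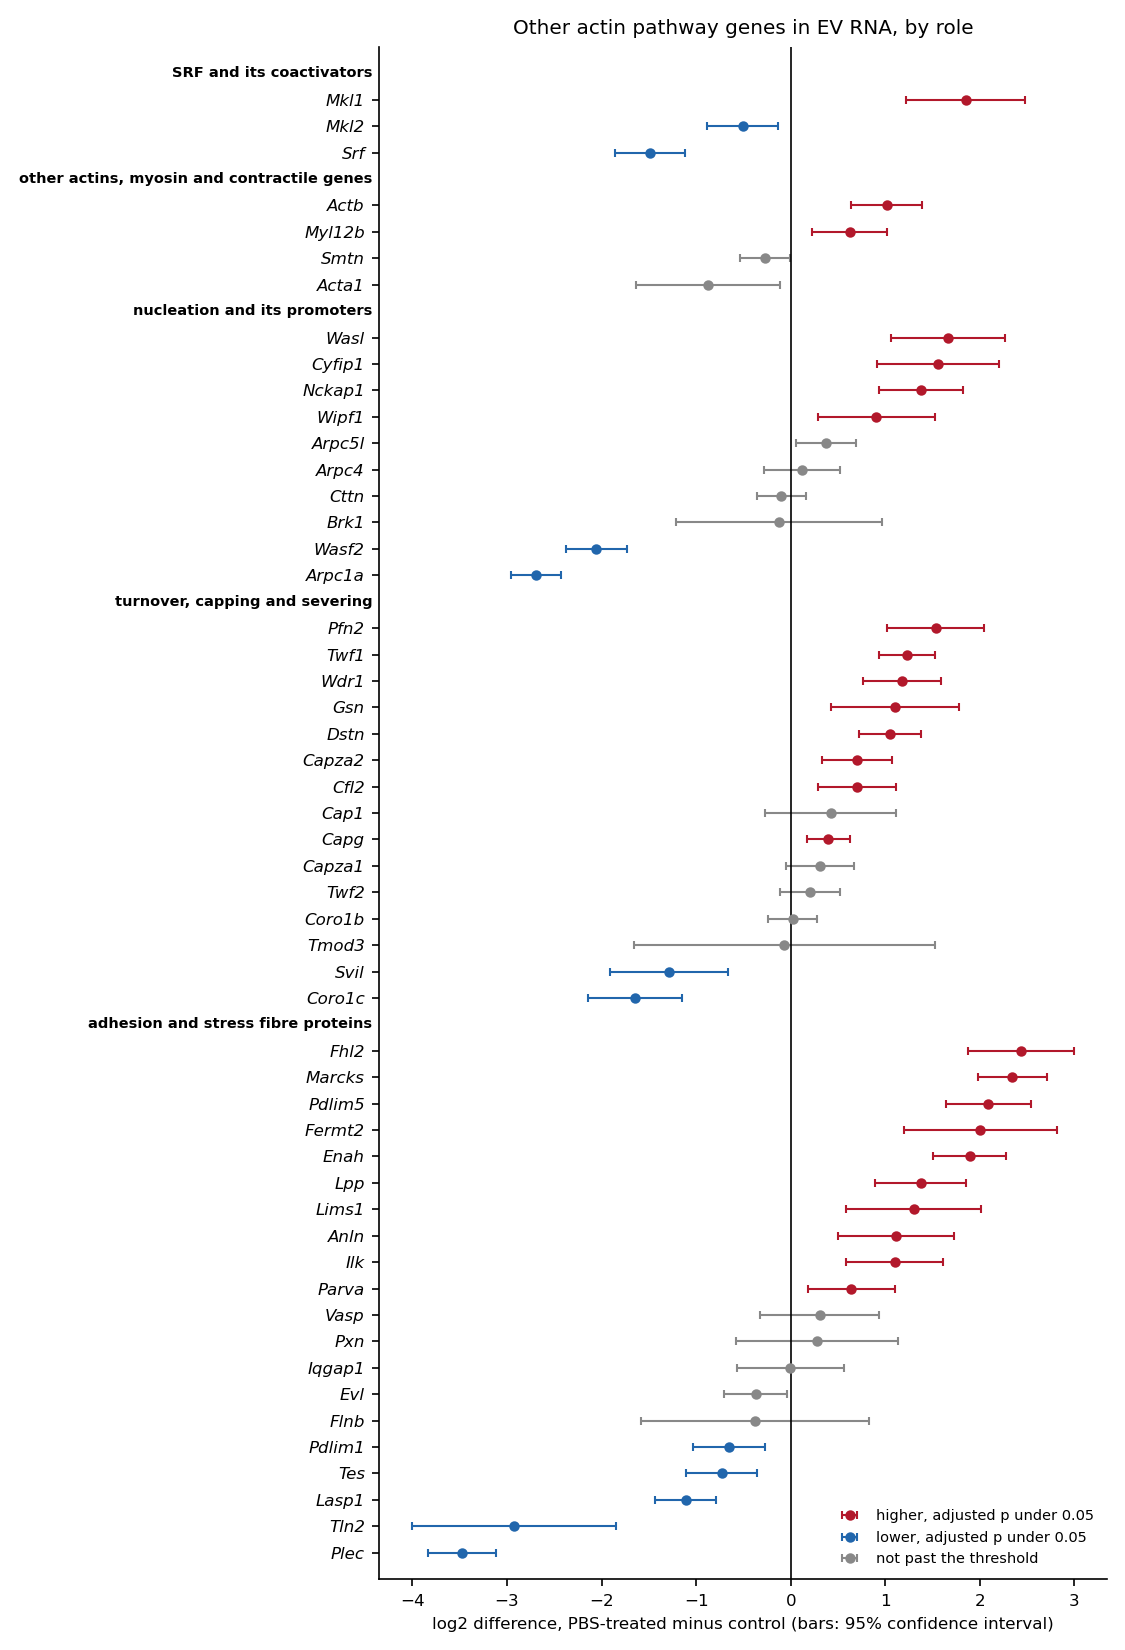
Log2 difference between PBS-treated and control EVs (x axis) for 52 other actin pathway genes tested, in 5 groups by role (y axis), with points for the fitted difference and bars for its 95% confidence interval. Both directions are seen in most groups, from Plec at -3.48 to Fhl2 at 2.43. Of these genes 25 were higher and 11 lower, against 31.6% and 20.7% of all genes tested.

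The genes of branched nucleation did not all follow the 6 Arp2/3 subunits above. Arpc1a, which encodes an alternative form of the Arpc1b subunit, fell 6.47-fold (log2 difference -2.69 ± 0.12, SE, adjusted p = 1.44e-06), where Arpc1b rose 1.62-fold. Wasf2, a member of the WAVE complex that activates Arp2/3, fell by 2.06 ± 0.14 (adjusted p = 1.15e-05), and its second probe by 1.36. Both Arpc1a and Wasf2 passed in the same direction under all 26 alternatives. Within the nucleation genes 4 of 10 rose and 2 fell, close to the shares of all genes (31.6% and 20.7%), and the Arp2/3 subunits Arpc4 and Arpc5l differed by 0.12 (adjusted p = 0.584) and 0.37 (adjusted p = 0.053), neither past the threshold.

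Adhesion and stress fibre genes held both the highest and the lowest values of the list, with 10 of 20 higher and 5 lower, against 31.6% and 20.7% of all genes. The LIM-domain gene Fhl2 rose by 2.43 ± 0.25, and Marcks, whose product crosslinks actin at the membrane, by 2.34 ± 0.16 (adjusted p = 7.45e-05 and 1.14e-05). Pdlim5, which entered the test through the PBS-treated arrays alone, was at least 2.37-fold higher (adjusted p = 5.16e-05), though it was -0.03 with normexp and 0.68 with the mean of all probes, and passed in neither. Plec, for plectin, which ties intermediate filaments to actin and adhesions, fell 11.1-fold (log2 difference -3.48 ± 0.16, SE, adjusted p = 1.62e-06). Tln2, the second talin gene, fell by 2.92 ± 0.47 (adjusted p = 0.000943).

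The transcription factor of the family and its coactivators moved in different directions. Srf fell by 1.49 ± 0.16 (log2, SE, adjusted p = 0.000109), and its second probe by 1.50, but it did not pass with the percentile over all probes or with spike-in scaling (-0.20 in the latter). Mkl1 rose by 1.85 ± 0.28 (adjusted p = 0.000599), with its second probe at 2.13. Mkl2 fell by 0.51 ± 0.16 (adjusted p = 0.0287), but its groups overlapped, it was 0.78 with spike-in scaling, and it did not pass without PBS-treated replicate 1, 2, 4 or 5 or control replicate 1 or 2 (-0.42 to -0.51, adjusted p between 0.0581 and 0.0745). Myocd, the muscle coactivator, was detected on no array.

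Actb, the cytoplasmic β-actin and no member of the list, rose 2.02-fold (log2 difference 1.02 ± 0.16, SE, adjusted p = 0.000957), by 0.76 on slide 1 and 1.29 on slide 2. Among the other actin, myosin and contractile genes it was 1 of 2 that rose, of 4 tested and 9 measured, against 31.6% of all genes. The second was the light chain gene Myl12b (0.62, adjusted p = 0.0163). Of the 42 members, 8 passed under every alternative that tested them, all of them upward: Msn, Rdx, Actr2, Actr3, Arpc2, Actn4, Tpm4 and Myl12a. The share of all genes that did so was not counted, so this number has no background beside it.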

How the data were processed

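Total RNA of EVs was copied into cyanine 3 labelled cRNA, with 1 array of a 1-colour Agilent mouse design for each sample. Per the file headers, the authors quantified the arrays with Agilent Feature Extraction 10.7.3.1, and the deposited intensity is the background-corrected brightness of each spot on a linear scale. A deposited table of log2 values served as an alternative. The authors' methods name an in-house pipeline, SLIMarray, and the normalization and centring it applied are not given in the sources used here. No spot was saturated, and 3 to 29 non-uniform spots per array and all control spots were left out. Log2 intensity was set relative to the 75th percentile over 8422 probes well above background on all 9 arrays. Gene names are those of the design, and an accession match to RefSeq (26413 probes) renamed 3062 of them. Groups were compared with limma 3.58.1 (lmFit, eBayes, two-sided) in R 4.3.3, without covariates, with Benjamini-Hochberg adjustment over all genes tested. The fit was tested on simulated data. For a probe undetected throughout a group the fold is a lower bound. On each array of that group it uses the larger of the probe's signal and the array's lowest well detected signal. Python 3.11.15, pandas 2.3.3 and matplotlib 3.10.9 were used for tables and figures.

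The members, the further pathway genes and the tests were chosen with earlier results of these data known. All 42 members are named, with the values of every array for the 4 called members with the largest rise, for the called members that fell and for the member with the largest difference in each role. Of the other pathway genes, the 5 largest rises and falls, Actb, Srf, Mkl1 and Mkl2 are given, and other pathway genes were named after their values were seen. Some pathway genes that this rule names are not reported here. Precision is limited by the number of arrays. Other scalings, normexp (offset 50), filters, probe choices, slide and replicate blocks, array weights, the methods' t-test and leaving out arrays were tried. Leaving out control replicates 3 and 4 together was chosen after seeing the data.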

Additional observations from a re-analysis of the deposited data

Results flagged for a closer look

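In 104 groups of values (each of the 38 members tested and 14 other pathway genes, in PBS-treated and in control arrays) an array far from the rest of its group was found 6 times, and chance alone flags about 1 group in 20. All 6 were PBS-treated replicate 3. Among the members, Tagln2 read -1.86 there and -0.22 to 0.37 on the other PBS-treated arrays, and Zyx read 0.84 against 1.06 to 1.14. Of the other pathway genes, Pak2 read -1.32 against -1.87 to -1.75, Wasf2 -0.79 against -1.33 to -1.22, Actb 4.32 against 4.71 to 4.82, and Mkl2 -1.92 against -2.30 to -2.19. Without this array Tagln2 differed by 1.74 and the other 5 kept their call and direction.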

How the results depend on the processing

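With the percentile over all probes 12 members were higher and 0 lower, against 24.7% and 9.47% of all genes. The members' median was then 0.93 and 7 other pathway genes were lower. With spike-in scaling 36 members were higher and 0 lower, against 62.6% and 4.97% of all genes. The members' median was 1.81, and 50 other pathway genes were higher and 4 lower. Normexp gave 4 members lower, against 32.6% of all genes, and 21 other pathway genes higher, against 13.2%. The value table and no filter on dim probes each gave 1 member lower (13.2% and 14.4% of all genes). The mean of all probes gave 4, slide 1 alone 5 and array weights 8 (22.6%, 31.4% and 33.2% of all genes). Leaving out control replicates 3 and 4 together gave 4 (20.8% of all genes). Leaving out each array in turn gave 18 to 21 members higher and 2 to 3 lower, against 28.4% to 31.6% and 18.1% to 20.4% of all genes. The members' median was 0.45 to 0.61, and 30 to 33 other pathway genes were higher and 11 to 15 lower. Single genes reversed with the percentile over all probes (a difference of Myh9 of 0.0146), with spike-in scaling (Flna 1.13, Cnn2 1.16, Cald1 0.84, Tpm1 1.28, Myh9 0.90, Tmsb4x 0.16, Tmsb10 1.24, Vcl 1.15 and Mkl2 0.78), with normexp (Actn1 -0.47, Myl9 -0.61, Myh10 -0.54 and Pdlim5 -0.0341), with the mean of all probes (Tpm3 -0.84) and on slide 2 alone (Tpm1 0.56). The spike-in and percentile settings move all genes of an array by the same amount, and the cause of the other changes was not tested. Replicate numbers were shared between the groups, and the deviations of same-numbered arrays correlated at 0.702, 0.728, -0.536 and 0.742 for replicates 1 to 4. The closest control array had the same number for replicates 1, 2 and 4. These pairs each shared a slide, while the 2 arrays numbered 3 lay on different slides. Pairing by number and a shared slide therefore cannot be told apart. With a replicate block 15 members were higher and 2 lower, against 28.6% and 23.5% of all genes. The members' median was 0.53, and 28 other pathway genes were higher and 12 lower. Over the 38 members and all alternatives, 849 fits changed no call, of which 32 had the other sign with no call in either fit, 48 lost the call, 70 gained one and 14 reversed a called value. The methods' t-test called 23 members higher and 2 lower at its own threshold, against 33.6% and 22.6% of all genes. After Benjamini-Hochberg it called 21 and 2, against 30.8% and 19.6%. Signal over background limits Actn1 and Myl9, not detected in control EVs, and the 4 members that were not tested.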
